A study of Mus musculus with 6 samples.

Results

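The frontal cortical lobe of a mouse without the very low density lipoprotein receptor, Vldlr, was compared with that of a wild-type (WT) mouse from the same cross. Each was measured on 1 microarray, and these 2 arrays, of 6 in the series, were taken by their genotype labels. The deposited values are MAS5 signals, which are linear intensities per probe set (a group of probes for 1 transcript). Of 45101 probe sets, 45037 are not controls. They gave 18193 genes at 1 probe set a gene, and the 11498 genes whose mean signal reached 89.0 (the median of all probe sets) were kept. A difference is log2(signal + 28) in the Vldlr knockout minus the same in WT, and a fold change is on that scale, which understates the change of dim genes. A gene's signal, and the order of the arrays for it, are those of its 1 probe set used unless another is named.

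Every array holds the total RNA of 1 such lobe from a 21 day old mouse labelled male, on a mixed C57BL/6 and 129 background. The Vldlr knockout, an Apoer2 (gene symbol Lrp8) knockout, a knockout of both receptors and the WT came from a cross of double heterozygotes for the receptor genes. Knockouts of Dab1 and of Reln each came from matings of heterozygotes for that gene. The labels name no allele and no deleted part of Vldlr, and they do not say whether the Vldlr knockout animal had both copies of Apoer2. With 1 array per genotype, no difference below has a replicate check or a p-value, and the other 4 knockout arrays serve as a measure of how far single arrays lie apart. A genotype's name stands below for its 1 array.

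Reelin is a secreted protein that binds Vldlr and Apoer2 on migrating neurons. Clustered receptors let Src family kinases phosphorylate the adaptor Dab1, and that signal sets where cortical and cerebellar neurons come to rest. In mice, loss of both receptors gives the inverted cortex and small cerebellum of reeler, whereas loss of Vldlr alone leaves the neocortex nearly normal and disturbs the cerebellum more. In heart, muscle and fat, the same receptor takes up triglyceride-rich lipoproteins.

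The Vldlr knockout and WT arrays were on a common scale, with median signals of 86.5 and 92.2, and their log2 signals correlated over genes with a Pearson's r of 0.976. The 5' to 3' signal ratio was 1.38 and 1.41 for Gapdh and 0.721 and 0.753 for Actb. Bacterial control probe sets, which match no mouse RNA, read at most 38.9 in the Vldlr knockout and 20.1 in WT, so signals in that range show only that a transcript is dim. Xist, expressed from the silenced X chromosome of female cells, read 3820.0 in the Vldlr knockout and 3498.1 in WT, although both animals are labelled male. The Y-linked gene Eif2s3y read 0.6 and 7.1 on the same arrays. On the Apoer2 knockout array, Xist read 124.9 and Eif2s3y 367.5, so that array stood apart from the other 5 at genes of sex. Growth hormone (Gh) stood out there as well, at 3704.8 against 13.1 to 32.4 on the remaining 5. Cortical markers gave signal, with 18 of 20 upper-layer and 23 of 25 deep-layer neuron genes kept. Of all genes 11498 of 18193 were kept, and of striatal genes 16 of 18, so being kept does not check the label. Genes of cerebellar granule cells gave signal too. The granule cell receptor subunit gene Gabra6 read 1247.6 in the Vldlr knockout, 2014.9 in the Apoer2 knockout, 106.6 to 251.5 in the Dab1, Reln and double mutants, and 1797.0 in WT. In bulk tissue, fewer cells of a type and less RNA per cell cannot be told apart.

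Vldlr signal was lower in the Vldlr knockout than in WT at 6 of 6 probe sets, with log2 differences from -0.57 to -1.61. The probe set used for the gene, 1435893_at, read 187.3 in the Vldlr knockout, 491.7, 482.9 and 357.6 in the Apoer2, Dab1 and Reln knockouts, 185.6 in the double knockout, and 551.6 in WT. This is a log2 difference of -1.43, or 2.69-fold lower. Probe set 1417900_a_at read 90.3 in the Vldlr knockout, 326.2 to 424.2 in the 3 knockouts with an intact Vldlr gene, 74.5 in the double knockout and 333.3 in WT. At both of these, the arrays that lack Vldlr were the lowest of the 6 and did not overlap the other 4. Probe set 1434465_x_at kept 217.9 in the Vldlr knockout and 126.8 in the double knockout, against 488.7 in WT. At 1438258_at, which differed least, the Vldlr knockout array read 187.4, the double knockout array 109.7, the Apoer2, Dab1 and Reln knockout arrays 291.3, 271.3 and 215.0, and the WT array 291.0. The 2 dimmest probe sets, 1442169_at and 1451156_s_at, read 33.2 and 23.0 in the Vldlr knockout and 95.1 and 65.2 in WT. A probe set outside the deleted part checks nothing, and the labels do not give that part.

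**Figure D1:**
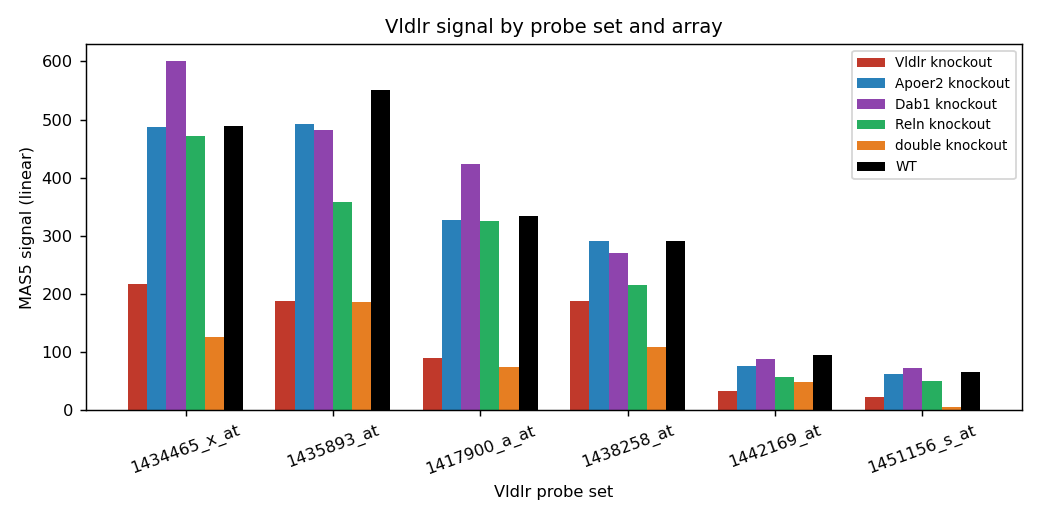
MAS5 signal (linear, vertical axis from 0) of each of the 6 Vldlr probe sets, with 1 bar per array, the Vldlr knockout first and WT last. At 1435893_at the Vldlr knockout and double knockout bars stand at 187.3 and 185.6, and the other 4 bars at 357.6 to 551.6.

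The rest of the reelin pathway was close to WT in the Vldlr knockout. Of 42 kept pathway genes, 29 read above WT and 13 below, with a median log2 difference of 0.11, and Vldlr was the 1 gene past 2-fold. Over all kept genes, 5740 lay above WT and 5748 below, with a median of 0.00. The partner receptor gene Lrp8 read 379.8 in the Vldlr knockout, 370.1 and 342.4 in the Dab1 and Reln knockouts, 4.2 and 13.7 in the Apoer2 and double knockouts, and 357.8 in WT. The ligand gene Reln read 1880.0 in the Vldlr knockout and 1669.0 in WT, against 79.9 in the Reln knockout. The adaptor gene Dab1 read 626.0 in the Vldlr knockout, 478.5 to 588.1 in the other 4 knockouts and 576.2 in WT. At these probe sets the log2 differences from WT were only 0.08 for Lrp8, 0.17 for Reln and 0.11 for Dab1. Some other probe sets past the filter read below WT, by -0.56 and -0.10 for Dab1 and by -0.06 for Lrp8, so no direction can be given for either gene. Downstream, the largest pathway differences were 0.41 for Cdk5r2, an activator of the kinase Cdk5, 0.40 for the tau kinase gene Gsk3b (-0.18 to 0.58 at its 4 other probe sets past the filter), and -0.45 for Crkl, an adaptor that binds phosphorylated Dab1. Crkl read 445.0 in the Vldlr knockout, the lowest of the 6, 565.3 to 735.2 in the other 4 knockouts and 618.3 in WT. Its 2 other probe sets past the filter differed by -0.48 and 0.13.

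Other receptors of the LDL receptor family, which share ligand-binding repeats with Vldlr, did not shift together. Of 11 kept family genes other than Vldlr, 8 read above WT and 3 below, with a median log2 difference of 0.04. Sorl1, a sorting receptor, had the highest difference at 0.66. It read 2211.8 in the Vldlr knockout, 1226.2, 991.1, 2282.4 and 2079.9 in the Apoer2, Dab1, Reln and double knockouts, and 1391.0 in WT. The opposite was read at another Sorl1 probe set past the filter, 1460390_at, with 290.8 in the Vldlr knockout, 551.9, 462.4, 398.6 and 311.2 in the Apoer2, Dab1, Reln and double knockouts, and 651.7 in WT (-1.09). At a further one, 1453003_at, the difference was -0.05, so no direction can be given for Sorl1. Lrp12 differed by 0.36, and Lrp2, an endocytic receptor, by -0.44 with 93.0 in the Vldlr knockout and 135.7 in WT. Genes of lipoprotein ligands and receptor handling (15 kept, 5 above WT, median -0.01) and of fatty acid uptake and storage (21 kept, 9 above WT, median -0.02) lay around 0, and each of these 2 medians changed sign under 1 alternative setting. Among them, Fabp7, the brain fatty acid-binding protein of radial glia and astrocytes, read 1618.0 in the Vldlr knockout, 718.2, 1272.2, 404.3 and 638.2 in the Apoer2, Dab1, Reln and double knockouts, and 944.9 in WT. The Vldlr knockout array was the highest of the 6, with a log2 difference from WT of 0.76.

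In all, 28 genes (0.244% of 11498) were at least 2-fold higher in the Vldlr knockout than in WT and 55 (0.478%) at least 2-fold lower, 83 (0.722%) either way. Over all probe sets without controls, 328 (0.728% of 45037) were at least 2-fold higher and 591 (1.31%) lower, of which 78 and 162 are unnamed here. The count of 83 is no larger than that between knockout arrays. Among the 6 pairs of the other 4 arrays, the count of genes 2-fold apart was 83 (0.722%) for Dab1 and double, 90 (0.783%) for Apoer2 and double, 103 (0.896%) for Apoer2 and Dab1, 132 (1.15%) for Reln and double, 194 (1.69%) for Dab1 and Reln, and 201 (1.75%) for Apoer2 and Reln. By this count the Vldlr knockout and WT arrays equalled the closest of these pairs, while the Apoer2 knockout and WT arrays were closer, with 45 genes (0.391%). The median absolute difference between the Vldlr knockout and WT arrays was 0.159 on the log2 scale, against 0.137 to 0.191 in the 6 pairs, and the SD over genes 0.288, against 0.274 to 0.373. By these measures the pair lay inside the range of the others. Of the 83 genes, 27 had another probe set past the filter, and 17 of those had one at least 1.5-fold apart in the same direction, against 6.54% of the 5151 kept genes with another probe set. Probe sets of 1 gene read the same RNA, and the 83 genes were picked for a large difference on these arrays. The share therefore checks the probe and not the animal. At 2 genes, Prune2 and Mcm4, another probe set was at least 1.5-fold apart the opposite way.

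**Figure D2:**
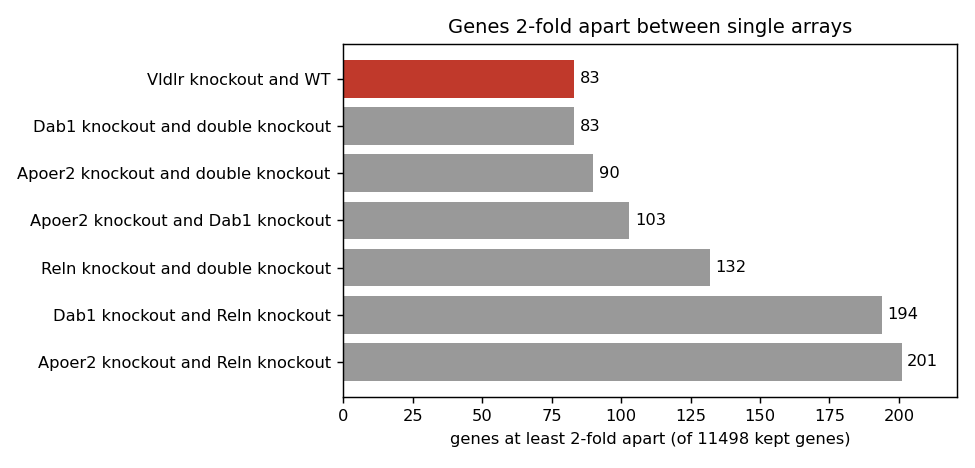
Number of genes at least 2-fold apart (horizontal axis from 0) for the Vldlr knockout and WT arrays, top, and for each of the 6 pairs of the other 4 arrays. The Vldlr knockout and WT bar ends at 83 genes, and the bars of the other pairs end at 83 to 201.

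A difference between 2 arrays can lie in either, so each of the 83 genes was placed by which array stood outside the range of the other 5. The Vldlr knockout array stood outside at 53 genes, 11 higher and 42 lower than WT, and the WT array at 49, with 28 genes in both sets. Over all kept genes the Vldlr knockout array lay outside at 29.1% and the WT array at 37.8%, so the WT array was outermost more often. At 9 of the 83 genes neither array was outermost. In 65 genes, 17 higher and 48 lower, the WT and Vldlr knockout arrays were farther apart than any pair of the other 4 arrays, against 19.6% of all kept genes, although genes picked for a large difference between these 2 arrays reach this more readily. At 8 of the 83 genes the dimmer array did not rise above its highest bacterial control, the Vldlr knockout at 6 and WT at 2. For these a fold is a lower bound, the brighter signal over that control's, each with 28 added, and 7 of the 8 stayed past 2-fold.

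Among genes with the Vldlr knockout array outermost, the lowest were Tmem87a and Cap1. Tmem87a, which encodes a Golgi membrane protein, read 11.6 in the Vldlr knockout, 268.5, 381.2 and 278.0 in the Apoer2, Dab1 and Reln knockouts, 11.8 in the double knockout, and 284.7 in WT. Both arrays that lack Vldlr were within the range of the bacterial controls and the other 4 far above it, so that the Vldlr knockout array was at least 4.67-fold lower than WT. Cap1, a cyclase-associated protein that turns over actin filaments, read 130.1 in the Vldlr knockout, 1668.8, 1807.6, 992.6 and 1621.2 in the Apoer2, Dab1, Reln and double knockouts, and 983.6 in WT. That is a log2 difference of -2.68, or 6.4-fold lower, and a second Cap1 probe set read 42.7 in the Vldlr knockout, 1012.4 to 1648.7 in the other 4 knockouts and 892.8 in WT. At Cap1, unlike Tmem87a, the double knockout array was not low.

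The other low genes named here had smaller differences. Arc, an activity-induced protein that remodels synapses, read 64.4 in the Vldlr knockout, 778.9, 260.2, 1454.8 and 489.9 in the Apoer2, Dab1, Reln and double knockouts, and 282.4 in WT. The Vldlr knockout array differed from WT by -1.75, but Arc also spread over 2.36 log2 units among the other 4 knockouts. Mid1, a microtubule-associated ubiquitin ligase, read 90.2 in the Vldlr knockout, 304.7, 324.3 and 182.7 in the Apoer2, Dab1 and Reln knockouts, 112.4 in the double knockout, and 469.0 in WT (log2 difference -2.07). Again the arrays that lack Vldlr were the lowest of the 6. Slc6a5, the glycine transporter of inhibitory nerve endings, read 61.9 in the Vldlr knockout, 132.7 to 295.5 in the other 4 knockouts and 305.1 in WT (-1.89). Palld, an actin-binding protein, read 37.9 in the Vldlr knockout, 39.2 in the double knockout, 64.1 to 142.5 in the Apoer2, Dab1 and Reln knockouts, and 163.0 in WT (at least 2.86-fold lower). Zswim3, a zinc finger gene, read 14.5 in the Vldlr knockout, 99.3 to 138.3 in the other 4 knockouts and 127.0 in WT (at least 2.32-fold lower). The uncharacterised gene Gm19439 read 146.2 in the Vldlr knockout and 482.0 in WT (-1.55). For 2010315B03Rik, also uncharacterised, the Vldlr knockout array read 33.5 and the WT array 151.7 (at least 2.69-fold lower). Palld, Zswim3 and 2010315B03Rik were not above the bacterial controls in the Vldlr knockout.

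Prune2 gave opposite readings at its probe sets. At 1455342_at, used for the gene, it read 477.0 in the Vldlr knockout, 1611.4, 503.4, 665.1 and 595.4 in the Apoer2, Dab1, Reln and double knockouts, and 1599.6 in WT (-1.69). At 1432198_at it read 833.7 in the Vldlr knockout, 81.9, 291.1, 384.8 and 770.9 in the Apoer2, Dab1, Reln and double knockouts, and 61.7 in WT (3.26). The arrays thus ran in nearly opposite orders, and the mean of the gene's probe sets past the filter gave 0.53, so no direction can be given for Prune2 as a whole.

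The highest gene with the Vldlr knockout array outermost was Gdpd3, a lysophospholipase D. It read 467.7 in the Vldlr knockout, 232.7, 43.4, 12.4 and 24.5 in the Apoer2, Dab1, Reln and double knockouts, and 55.0 in WT, a log2 difference of 2.58. The Apoer2 knockout array was high as well, and the double knockout array was among the low ones. Rorb, a nuclear receptor of layer 4 neurons, read 383.4 in the Vldlr knockout, 149.7, 236.5, 249.1 and 312.4 in the Apoer2, Dab1, Reln and double knockouts, and 155.4 in WT (1.17). The arrays that lack Vldlr were the highest of the 6, while 2 dimmer Rorb probe sets read 64.1 and 24.8 in the Vldlr knockout and 72.2 and 47.0 in WT. The uncharacterised gene 2900052N01Rik read 744.4 in the Vldlr knockout, 285.5, 230.3 and 370.6 in the Apoer2, Dab1 and Reln knockouts, 672.7 in the double knockout, and 247.4 in WT (1.49). It too was highest where Vldlr was lacking, and a second probe set for it differed by 1.30. Trpc7, a cation channel gene, read 201.4 in the Vldlr knockout, 163.5 in the double knockout, 30.0 to 123.0 in the Apoer2, Dab1 and Reln knockouts, and 78.6 in WT (1.11). Ephb3, a receptor for ephrins, read 172.2 in the Vldlr knockout and 68.5 in WT (1.05), but the Reln knockout array came close at 163.8. Lsm12 differed by 1.12 with the Reln knockout array also high, at 288.7 against 326.8 in the Vldlr knockout and 134.7 in WT. Rab11fip1, an effector of recycling endosomes, differed by 1.15, Flywch2 by 1.08, the protease inhibitor gene A2ml1 by 1.08 and 2810049E08Rik by 1.66. At these last 4 genes the WT array was the lowest of the 6 while the Vldlr knockout array was the highest.

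**Figure D3:**
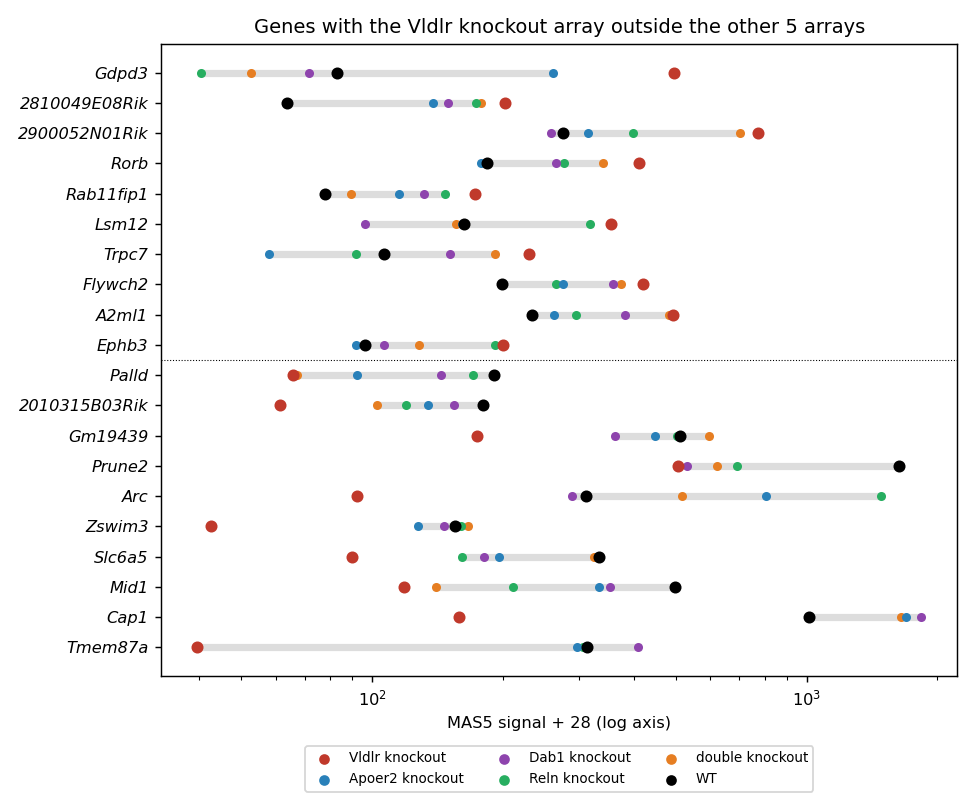
MAS5 signal + 28 on a log axis for the 10 highest and 10 lowest genes at which the Vldlr knockout array lies outside the range of the other 5, with 1 point per array. For Cap1 the Vldlr knockout point (signal 130.1) stands alone below 983.6 to 1807.6, and for Tmem87a the double knockout point lies beside it.

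At another 21 of the 83 genes the WT array alone was outermost. Pttg1, securin, a regulator of sister chromatid separation, read 305.6 in the Vldlr knockout, 206.3, 1026.1, 291.2 and 226.4 in the Apoer2, Dab1, Reln and double knockouts, and 1788.9 in WT (-2.45). The Vldlr knockout value lay inside the range of the other knockouts. The same held for Sc5d, an enzyme late in cholesterol synthesis, at 230.4 in the Vldlr knockout, 689.1, 640.6, 235.9 and 209.3 in the Apoer2, Dab1, Reln and double knockouts, and 781.5 in WT (-1.65, and -0.84 at another probe set past the filter). Scn4b, a sodium channel subunit, read 434.3 in the Vldlr knockout, 431.8 to 851.1 in the other 4 knockouts and 1133.4 in WT (-1.33). On the other side, Khsrp, a protein of mRNA decay and splicing, read 221.3 in the Vldlr knockout, 83.3, 90.0, 237.8 and 196.6 in the Apoer2, Dab1, Reln and double knockouts, and 33.6 in WT (2.02). Foxh1, a Smad partner, and Cd33, a receptor of myeloid cells, read 134.9 and 97.6 in the Vldlr knockout and 26.7 and 15.8 in WT, a log2 difference of 1.57 for Foxh1 and at least 2.61-fold for Cd33, and Gm35161 was at least 3.49-fold higher than in WT. At Cd33 and Gm35161 the WT array was not above its bacterial controls. At both Foxh1 and Cd33 the 5 knockouts overlapped one another and WT stood alone below them.

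Some further genes, picked after their values were seen and known in part from myelinating cells, also had the WT array highest. Klk6, a serine protease of oligodendrocytes, read 89.5 in the Vldlr knockout, 133.6, 160.2, 119.5 and 92.4 in the Apoer2, Dab1, Reln and double knockouts, and 280.8 in WT (-1.39). Hapln2, a link protein at nodes of Ranvier, read 165.0 in the Vldlr knockout, 204.6 to 297.3 in the other 4 knockouts and 424.5 in WT (-1.23, and -1.70 at a second probe set). For both, the Vldlr knockout was the lowest array and WT the highest. Cryab, a small heat shock protein, read 568.0 in the Vldlr knockout, 506.3 to 730.0 in the other 4 knockouts and 1409.5 in WT (-1.27). Ndrg1, which encodes a protein of myelinating cells, read 654.5 in the Vldlr knockout, 606.1 to 952.1 in the other 4 knockouts and 1435.3 in WT (-1.10), and its 4 other probe sets differed by -1.16 to -1.41. At the probe set used, the Vldlr knockout array lay inside the range of the other knockouts. Anln and Efhd1 also had the Vldlr knockout inside that range and WT highest, with 220.8 and 291.8 in the Vldlr knockout and 493.5 and 661.4 in WT. In the opposite direction, the cold-inducible RNA-binding protein gene Cirbp, also picked after its values were seen, read 1196.8 in the Vldlr knockout, 823.8 to 1462.1 in the other 4 knockouts and 537.0 in WT (1.12). WT again stood alone.

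Where neither array was outermost, other knockout arrays spanned the difference. Efhd2, a calcium-binding actin regulator, read 696.8 in the Vldlr knockout, 2587.6, 445.8, 4735.2 and 525.6 in the Apoer2, Dab1, Reln and double knockouts, and 4062.9 in WT (-2.50, and -0.82 at another probe set past the filter). It was high on 3 arrays and low on 3, with the Vldlr knockout among the low ones. Alas2, the erythroid enzyme of heme synthesis, read 406.1 in the Vldlr knockout, 247.9, 205.9, 125.3 and 848.1 in the Apoer2, Dab1, Reln and double knockouts, and 157.3 in WT (1.23). Zap70, a kinase of T cells, and the zinc finger gene Zfp1 differed by 1.23 and 1.12, while Zfp991 and the carnosine synthase gene Carns1 differed by -1.50 and -1.10. The other 3 blood genes kept with Alas2 differed from WT by 0.07 for Bpgm, -0.14 for Fech (0.25 and 0.26 at other probe sets) and -0.94 for Car2, which oligodendrocytes also express.

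Loss of Vldlr occurs a further time in the series, in the double knockout array against the Apoer2 knockout array, and that pair shares no array with the Vldlr knockout and WT. There, 24 genes (0.209%) were at least 2-fold higher in the double knockout and 66 (0.574%) at least 2-fold lower. Of the 83 genes, 56 (67.5%) had the same sign in both pairs, against 57.7% of all kept genes. At least 2-fold in the same direction were 14 genes, and 5 were at least 2-fold in opposite directions. Those lower in both were Vldlr, Tmem87a, Efhd2, Mid1, Sc5d, Rbm45 and Pax6, and Prune2 at the probe set used. Prune2 was higher in both at 1432198_at (3.26 and 2.86), and 13 genes are left without it. Those higher in both were Khsrp, 2900052N01Rik, Alas2, Rpusd3, Tent5c and Trpc7. In 10 of the 14, both arrays without Vldlr lay on 1 side of the other 4, as they did in 25 of the 83 genes and 9.61% of all kept genes, although genes picked for a large difference reach this more readily. Tmem87a was at least 4.67-fold lower in the Vldlr knockout than in WT and at least 5.24-fold lower in the double than in the Apoer2 knockout, the dimmer array of each pair being no brighter than its bacterial controls. Mid1 differed by -2.07 in the first pair and by -1.24 in the second, 2900052N01Rik by 1.49 and 1.16, and Trpc7 by 1.11 and 1.72. Vldlr itself differed by -1.43 and -1.28.

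At Khsrp, Rpusd3, Efhd2 and Prune2, an array with an intact Vldlr gene lay among or beyond those without it. Sc5d was nearly as low in the Reln knockout as on the 2 arrays that lack Vldlr, and Efhd2 was lowest in the Dab1 knockout. Pax6, a transcription factor of cerebellar granule cells and cortical progenitors, read 98.2 in the Vldlr knockout, 220.7, 148.2, 120.9 and 88.9 in the Apoer2, Dab1, Reln and double knockouts, and 245.3 in WT (-1.11 and -1.09). The double knockout array also had less signal from cerebellar granule genes than the Apoer2 knockout array, with a list median of -1.65, and it differed from it at genes of sex. The part of these in the shared genes was not tested. Rbm45, an RNA-binding protein, read 82.7 in the Vldlr knockout, 412.0, 241.7, 126.9 and 94.7 in the Apoer2, Dab1, Reln and double knockouts, and 230.0 in WT (-1.22 and -1.84). The arrays that lack Vldlr were the lowest of the 6 for Rbm45, with the Reln knockout array next. Rpusd3, an RNA pseudouridine synthase, read 133.3 in the Vldlr knockout, 57.2, 146.6, 72.2 and 160.5 in the Apoer2, Dab1, Reln and double knockouts, and 41.3 in WT (1.22 and 1.15). Tent5c, a poly(A) polymerase, differed by 1.11 and 1.53, and Cap1, so low in the Vldlr knockout, by -0.04 in the second pair.

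**Figure D4:**
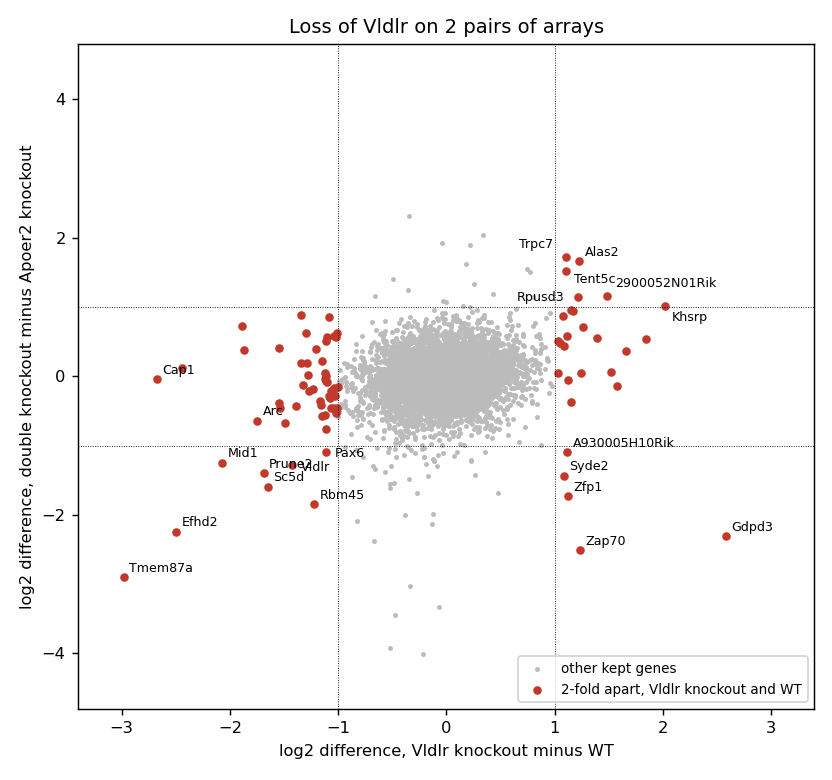
Log2 difference of each kept gene in the Vldlr knockout minus WT (horizontal axis) and in the double minus the Apoer2 knockout (vertical axis), with the 83 genes 2-fold apart in the first pair drawn larger and dotted lines at 2-fold. Tmem87a, whose dim signals are within the bacterial controls, is drawn at its measured -2.98 and -2.90, Cap1 at -2.68 and -0.04, and Gdpd3 at 2.58 and -2.31. Gh and Xist, which differ in the Apoer2 knockout, are not drawn.

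Genes near Vldlr on the chromosome were listed because a knockout allele bred on a mixed background carries its neighbourhood with it. Of the 20 nearest kept genes on each side, 2 of 40 (5.0%) were at least 1.5-fold apart between the Vldlr knockout and WT arrays, against 511 (4.44%) of all 11497 kept genes except Vldlr. They were Rorb and the retinaldehyde dehydrogenase gene Aldh1a1, which read 573.1 in the Vldlr knockout, 513.4 to 743.3 in the other 4 knockouts and 892.0 in WT (-0.61). For Aldh1a1 the WT array was the highest and the Vldlr knockout lay inside the range of the rest. Taking 40 genes on each side, a range chosen after the data had been seen, gave 4 of 80 (5.0%), with Prune2 and Ppp1r3c added. At least 1.5-fold the same way in both pairs were Rorb and, at the probe set used, Prune2, 2 of 80 (2.5%). This compares with 55 (0.478%) of all 11497 kept genes except Vldlr and 4 of 400 (1.0%) on the chromosome, which both include the 80. Prune2 went the same way in both pairs at 1455342_at (-1.69 and -1.39) and at 1432198_at (3.26 and 2.86), but these probe sets disagreed in direction. Without Prune2 the count was 1 of 80 (1.25%). Among the 20 nearest kept genes on each side, it was 1 of 40 (2.5%), Rorb.

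Activity-induced immediate early genes often had the Vldlr knockout array lowest. It was the lowest of the 6 at 14 of 31 kept genes, against 15.5% of all kept genes, and 21 of 31 read below WT, with a median difference of -0.18. Against WT, the list medians of the other arrays were 0.40 (Apoer2), 0.05 (Dab1), 0.83 (Reln) and 0.28 (double), so the WT array was itself low, and both it (-0.43) and the Vldlr knockout (-0.40) lay below the mean of the other 4. Npas4, a transcription factor induced by calcium entry, read 40.3 in the Vldlr knockout, 156.2, 73.2, 330.2 and 227.3 in the Apoer2, Dab1, Reln and double knockouts, and 93.5 in WT (-0.83). Fos read 449.0 in the Vldlr knockout, 1262.4, 662.7, 1998.5 and 984.1 in the Apoer2, Dab1, Reln and double knockouts, and 535.0 in WT (-0.24). Vldlr knockout and WT were the lowest arrays for Fos, and for Junb, which read 160.2 in the Vldlr knockout, 276.4 to 577.5 in the other 4 knockouts and 231.6 in WT (-0.46). Not every member was low. Nptx2, a secreted synaptic pentraxin, read 538.1 in the Vldlr knockout and 351.2 in WT (0.58), Klf10 differed by 0.25 and Egr1 by 0.17, with 3504.0 in the Vldlr knockout and 3120.3 in WT. Fos, Junb and Egr1 were picked after their values were seen. Dusp1, a phosphatase that shuts off MAP kinases and is also a glucocorticoid target, read 380.8 in the Vldlr knockout, 834.1, 642.6, 978.6 and 1072.2 in the Apoer2, Dab1, Reln and double knockouts, and 582.0 in WT (-0.58). The Vldlr knockout was lowest here too. Glucocorticoid targets as a list (18 kept, 10 above WT, median 0.08) had the Vldlr knockout lowest at 8 genes and WT lowest at 8 others, against 15.5% and 19.7% of all kept genes. The Dusp1 promoter is shown because it holds the cAMP response element TGACGTCA, through which activity induces such genes. It lies at chr17:26508423-26508722 on the minus strand (RefSeq, GRCm38.p6), 250 bases before to 50 after the start, with the element in capitals.
Dusp1 promoter: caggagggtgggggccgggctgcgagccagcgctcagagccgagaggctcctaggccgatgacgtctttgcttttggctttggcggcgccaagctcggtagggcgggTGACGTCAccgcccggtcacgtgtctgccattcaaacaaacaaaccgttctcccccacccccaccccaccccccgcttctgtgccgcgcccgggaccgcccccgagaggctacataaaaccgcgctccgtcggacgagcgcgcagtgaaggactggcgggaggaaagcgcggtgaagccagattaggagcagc
The element was searched on both strands and starts 143 bases before the gene's start. It is in 1.79% of 32851 promoters and in 2 of the 24 immediate early genes in that table, Dusp1 and Btg2. The promoters of Npas4 and Nr4a1, searched alike, do not hold it. Arc, Egr1 and Egr3 are among the kept genes of the list that are missing from that table.

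Receptors for glutamate and GABA showed the reverse order. The Vldlr knockout array was the highest of the 6 at 8 of 25 kept genes, against 13.6% of all kept genes, and lowest at 0. Of the 25, 19 read above WT and 6 below, with a median of 0.17, where the other arrays had medians of 0.04 (Apoer2), -0.01 (Dab1), -0.14 (Reln) and -0.05 (double). Gabra2, a GABA-A receptor subunit, read 684.5 in the Vldlr knockout, 519.1, 144.3, 555.4 and 562.3 in the Apoer2, Dab1, Reln and double knockouts, and 366.0 in WT (0.85). Gabra5, another subunit, read 740.6 in the Vldlr knockout, 524.0 to 891.6 in the other 4 knockouts and 469.2 in WT (0.63). For Gabra2 the Vldlr knockout was the highest array, and for Gabra5 WT was the lowest. The members lowest against WT were the granule cell genes Gabra6 (-0.52) and Grm4, a presynaptic glutamate receptor (-0.43). Genes of cerebellar granule cells as a list read below WT at 16 of 18, with a median of -0.24 and summed signals of 19537 in the Vldlr knockout and 22808 in WT. The other arrays had medians of -0.06 (Apoer2), -1.28 (Dab1), -1.55 (Reln) and -1.72 (double). WT was the highest array at 9 of the 18 granule cell genes, against 18.2% of all kept genes. The Vldlr knockout was lowest at 0 of the 18 granule cell genes, against 15.5%. Neurod1, a transcription factor of these cells, read 1272.4 in the Vldlr knockout, 2098.0, 551.0, 416.9 and 382.1 in the Apoer2, Dab1, Reln and double knockouts, and 2044.7 in WT (-0.67). The Vldlr knockout lay below the Apoer2 knockout and WT and above the other 3. Purkinje cell genes did not follow, with 8 of 13 above WT and a median of 0.12.

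Choroid plexus genes, which mark the epithelium that makes cerebrospinal fluid, were lowest in the Vldlr knockout at the probe sets used for all 4 kept genes of 16 listed, against 15.5% of all kept genes. Over the 8 probe sets of these genes past the filter, the Vldlr knockout was lowest at 6 and below WT at 7. Ttr, transthyretin, read 5158.9 in the Vldlr knockout, 7609.9, 6435.6, 6774.0 and 6872.6 in the Apoer2, Dab1, Reln and double knockouts, and 7724.2 in WT (-0.58), and its 3 other probe sets differed by -0.20 to -0.32. Clic6 differed by -0.66 at the probe set used and by 0.64 at 1454866_s_at, where it read 211.4 in the Vldlr knockout, the highest of the 6, and 125.3 in WT. Folr1, a folate receptor, by -0.36 and Msx1 by -0.16. The list's median was -0.47, and its summed signal was 5768 in the Vldlr knockout, 7081 to 8442 in the other 4 knockouts and 8591 in WT. How much of this tissue each sample held, and its part in the other differences, was not tested.

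As lists, myelin, heat shock and immature neuron genes lay farther from the mean of the other 4 arrays in WT than in the Vldlr knockout. The list medians against that mean were 0.19 in WT and -0.06 in the Vldlr knockout for myelin, 0.20 and -0.04 for heat shock, and -0.26 and 0.16 for immature neurons. Some members went the other way, with 0.18 in WT and -0.46 in the Vldlr knockout for Mobp, and 0.38 and -0.75 for Hspa1b. Of 16 kept oligodendrocyte and myelin genes, 15 read below WT in the Vldlr knockout, with a median of -0.23, but the other arrays had medians of -0.13 (Apoer2), -0.14 (Dab1), -0.38 (Reln) and -0.05 (double). The WT array was the highest of the 6 at 7 genes, against 18.2% of all kept genes. Mobp, a structural protein of compact myelin, read 3904.1 in the Vldlr knockout, 4348.9 to 6019.3 in the other 4 knockouts and 6069.8 in WT (-0.63). Aspa, which breaks down N-acetylaspartate in oligodendrocytes, differed by -0.56. Mbp, the gene of myelin basic protein, picked after its values were seen, read 8039.0 in the Vldlr knockout, 8486.3 to 10052.8 in the other 4 knockouts and 9028.2 in WT (-0.17). The Vldlr knockout was the lowest array for Mobp and Mbp at these probe sets but not at all others past the filter. Oligodendrocyte precursor genes were 5 above and 8 below WT, with a median of -0.13.

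Among 22 heat shock and endoplasmic reticulum stress genes, 19 read below WT in the Vldlr knockout, with a median of -0.26, and the WT array was the highest of the 6 at 10, against 18.2% of all kept genes. The other arrays had medians of -0.09 (Apoer2), -0.33 (Dab1), -0.13 (Reln) and -0.31 (double). Past 2-fold were the inducible Hsp70 chaperone genes Hspa1a and Hspa1b, whose RNAs are so alike that probe sets may not separate them. Hspa1a read 64.4 in the Vldlr knockout, 118.3, 92.6, 154.9 and 78.6 in the Apoer2, Dab1, Reln and double knockouts, and 166.0 in WT (-1.07). Hspa1b read 91.4 in the Vldlr knockout, 164.5, 133.3, 234.9 and 171.7 in the Apoer2, Dab1, Reln and double knockouts, and 232.6 in WT (-1.13), and its 2 other probe sets differed by -0.98 and -1.02. The Vldlr knockout was the lowest array for both genes at the probe sets used. The chaperone gene Hspa5, picked after its values were seen, read 2157.9 in the Vldlr knockout, 1953.1 to 2748.5 in the other 4 knockouts and 2777.4 in WT (-0.36, and 0.07 at another probe set, 1447824_x_at). Dnajb1 (0.09) and Hspe1 (0.12) read above WT. The promoters of Hspa1a, at chr17:34972107-34972406, and of Hspa1b, at chr17:34959189-34959488, both on the minus strand (RefSeq, GRCm38.p6), are shown because these genes differed together. Capitals mark the heat shock element core GAANNTTC, a pair of inverted GAA units of the kind that heat shock factor binds.
Hspa1a promoter: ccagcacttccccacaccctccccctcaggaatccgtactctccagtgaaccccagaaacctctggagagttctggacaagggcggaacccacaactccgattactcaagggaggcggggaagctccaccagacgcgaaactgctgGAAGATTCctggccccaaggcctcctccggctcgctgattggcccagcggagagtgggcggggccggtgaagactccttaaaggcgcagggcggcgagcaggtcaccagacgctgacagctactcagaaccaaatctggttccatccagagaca
Hspa1b promoter: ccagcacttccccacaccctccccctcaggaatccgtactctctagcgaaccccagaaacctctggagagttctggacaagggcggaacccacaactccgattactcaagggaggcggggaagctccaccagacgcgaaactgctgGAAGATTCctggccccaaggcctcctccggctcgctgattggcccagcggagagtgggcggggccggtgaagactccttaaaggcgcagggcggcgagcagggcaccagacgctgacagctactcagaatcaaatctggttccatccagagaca
They share 296 of 300 bases (98.7%), and the core starts 104 bases before the start in each. Searched on both strands, the core is in 7.86% of 32851 promoters and in 7 of the 19 genes of this list in that table (Asns, Hspa1a, Hspa1b, Hspb1, Hspd1, Hspe1 and Hsph1).

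Genes of immature neurons read above WT in the Vldlr knockout at 14 of 16, with a median of 0.38. On the other arrays the list median was 0.11 (Apoer2), 0.66 (Dab1), 0.14 (Reln) and 0.14 (double), and the WT array was the lowest of the 6 at 8 genes, against 19.7% of all kept genes. Dpysl3, a protein of growing axons, read 1013.7 in the Vldlr knockout, 686.8, 1083.0, 709.2 and 946.3 in the Apoer2, Dab1, Reln and double knockouts, and 609.9 in WT (0.71, and 0.30 and -0.01 at its 2 other probe sets past the filter). Tubb2b, a tubulin of young neurons, read 1676.7 in the Vldlr knockout, 1019.9 to 1448.6 in the other 4 knockouts and 1021.6 in WT (0.70). WT was lowest for Dpysl3 and the Vldlr knockout highest for Tubb2b. The members below WT were Neurod1 and Nrep (-0.07). Among 9 kept interferon response genes, 7 read below WT, with a median of -0.31, and the WT array was highest at 5, against 18.2% of all kept genes. Ifi27 and Ifitm3, both interferon-induced, differed by -0.66 and -0.58, while the antiviral gene Rsad2 read 206.8 in the Vldlr knockout, 98.1 to 197.7 in the other 4 knockouts and 95.7 in WT (0.92).

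Genes of mitochondrial respiration (15 of 21 above WT, median 0.07) and of the cytosolic ribosome (11 of 15, median 0.10) had the WT array lowest at 11 and 9 genes, against 19.7% of all kept genes. Rps27, a ribosomal protein gene, read 362.9 in the Vldlr knockout, 173.2 to 421.7 in the other 4 knockouts and 148.0 in WT (1.15). Sterol synthesis genes had 14 of 22 below WT with a median of -0.08, the WT array being highest at 9, against 18.2% of all kept genes. Other than Sc5d, their largest difference below WT was -0.42 for Cyp51, a demethylase of the pathway.

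Cortical layer markers read mostly above WT, while interneuron, astrocyte and microglia lists lay nearer to it. Upper-layer markers read above WT at 14 of 18, with a median of 0.21 against 0.10, 0.17, -0.04 and 0.23 in the Apoer2, Dab1, Reln and double knockouts. Deep-layer markers did so at 17 of 23, with a median of 0.18 against 0.06, 0.12, -0.02 and 0.01 on those arrays. At deep-layer genes the Vldlr knockout was the highest array at 7 and the lowest at 3, against 13.6% and 15.5% of all kept genes. Crym and Rprm, markers of deep layers, differed by 0.69 and 0.68, each with the WT array lowest. Interneuron markers were 14 above and 9 below WT, with a median of 0.05. Tac1, a neuropeptide gene, read 1995.8 in the Vldlr knockout, 1830.4 to 2551.2 in the other 4 knockouts and 1187.3 in WT (0.74). Astrocyte markers were 8 above and 11 below (median -0.08), yet Gfap, the intermediate filament of astrocytes, read 809.3 in the Vldlr knockout, 1218.8 to 1451.9 in the other 4 knockouts and 1604.4 in WT (-0.96). For Gfap the Vldlr knockout was the lowest array and WT the highest, with the others close together between them. Reactive astrocyte genes had 4 of 11 above WT (median -0.07), microglia genes 7 of 14 (median -0.01) and endothelial and pericyte genes 12 of 17 (median 0.10). The reactive astrocyte and microglia medians changed sign between settings. Meningeal and fibroblast genes had 3 of 14 above WT (median -0.19), with the largest difference at Apod, an apolipoprotein, which read 1162.6 in the Vldlr knockout, 1375.8 to 1720.4 in the other 4 knockouts and 2259.1 in WT (-0.94). For this list the other arrays had medians of 0.06 (Apoer2), -0.19 (Dab1), -0.31 (Reln) and -0.37 (double). The WT array was highest at 5 of the 14, against 18.2% of all kept genes.

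**Figure D5:**
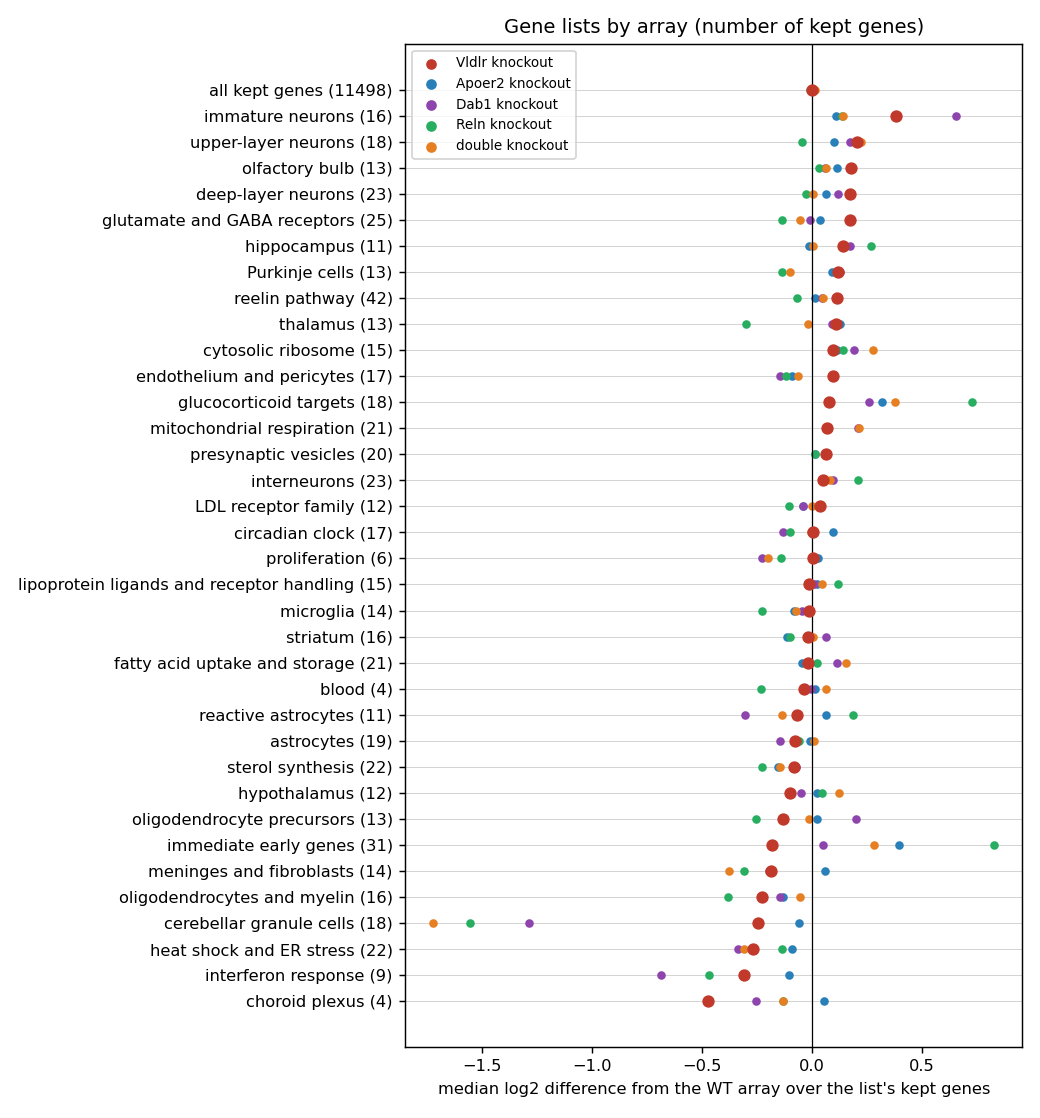
Median log2 difference from the WT array (horizontal axis) over the kept genes of each list, with 1 point per knockout array and the number of kept genes in parentheses. The Vldlr knockout points run from -0.47 for choroid plexus to 0.38 for immature neurons. For immediate early genes its point lies at -0.18 and those of the other 4 arrays at 0.05 to 0.83.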

How the data were processed

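Per the labels' protocols, total RNA (RNA-Stat60) of 6 frontal cortical lobes was turned into biotin-labelled cRNA (Affymetrix 3' IVT PLUS). The deposited values are linear intensities. Per the submitters' processing notes, the authors used MAS5 and Affymetrix Expression Console. Their versions and the genome build were not given in the sources used. The trimmed mean signal was 249.4 to 249.5 on every array. The platform annotation gave gene names (34958 with 1 gene, 932 with several, 9211 unnamed here). Gene IDs matched RefSeq's table, assembly GRCm38.p6, for 34754, and 0 symbols needed updating. It gave names and the order of neighbours, and promoter sequences are RefSeq's. Each gene took its brightest probe set by mean signal, those ending in _x_at last. Values were analysed as log2(signal + 28) in Python 3.11.15 with numpy 2.4.6 and pandas 2.3.3, tested on simulated data. With 1 array a side there is no test, and the number of arrays limits the precision.

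Members, 37 gene lists and rules were chosen with earlier results of these data known. Named genes are the 10 highest and 10 lowest with the Vldlr knockout array outside the other 5, the 4 highest and 4 lowest with WT outside and the Vldlr knockout inside, and the 3 highest and 3 lowest of the rest. Also named are the targeted and sex genes, list members past 2-fold, neighbours of Vldlr past 1.5-fold, and genes 2-fold in both losses of Vldlr. Of each described list's 2 highest and 2 lowest members, only some are named, and for some lists none. Others are said to be picked after their values were seen. Settings changed 1 at a time were the pseudocount (1 or 89.4), the filter (none, or 297.5), quantile normalization, averaging a gene's probe sets, WT and Apoer2 knockout averaged, and leaving out each other array.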

Additional observations from a re-analysis of the deposited data

Results flagged for a closer look

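5 genes were at least 2-fold higher in the Vldlr knockout than in WT and at least 2-fold lower on the double than in the Apoer2 knockout, so the losses of Vldlr differed in direction. The log2 differences were 2.58 and -2.31 for Gdpd3, 1.23 and -2.51 for Zap70, 1.12 and -1.73 for Zfp1, 1.12 and -1.09 for A930005H10Rik, and 1.09 and -1.43 for Syde2. At Gdpd3 and Zfp1 the double knockout array was not above its bacterial controls, and the fold there is a lower bound of 4.61 and 3.06. With 1 array a side, the difference between both losses was not tested. A930005H10Rik read 539.2 in the Vldlr knockout, 556.5 in the Apoer2 knockout, 231.9 to 267.6 in the Dab1, Reln and double mutants, and 233.6 in WT. Syde2 read 118.7 in the Vldlr knockout, 131.0, 139.8, 82.5 and 30.9 in the Apoer2, Dab1, Reln and double knockouts, and 41.1 in WT. At all 5 genes, both single receptor knockout arrays read above the double knockout and WT arrays.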

How the results depend on the processing

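The counts of 28 genes higher, 55 lower, 53 with the Vldlr knockout outermost and 49 with WT outermost depend on how dim genes are treated. They became 53, 90, 96 and 88 with a pseudocount of 1, and 10, 22, 18 and 19 with a pseudocount of 89.4. They became 126, 180, 192 and 198 with no filter, and 6, 21, 14 and 15 with a filter at 297.5. The share of lower genes, 66.3%, was 77.8% with that filter and 58.8% with no filter. With the mean of WT and Apoer2 knockout as reference, 14 were higher and 39 lower. Genes 2-fold the same way in both losses of Vldlr, 14, became 7, 28 and 6 with a pseudocount of 89.4, no filter and the filter at 297.5. They became 20 with a pseudocount of 1 and 10 with the mean of a gene's probe sets, and stayed at 14 with quantile normalization. Probe sets 2-fold higher and lower became 2514 and 3442 with a pseudocount of 1, 41 and 88 with 89.4, and 16 and 54 with the filter. Quantile normalization gave 28, 49, 45 and 47, and the mean of a gene's probe sets 28, 54, 53 and 47. Leaving out each of the other 4 arrays gave 56 to 60 genes with the Vldlr knockout outermost and 52 to 56 with WT outermost. Among values of named genes under alternatives, 923 moved by less than the spread of the other 4 arrays, 44 moved by more, and 1 was reversed, Prune2 at 0.53 with the mean of its probe sets. Among list medians, 197 moved by less and 11 by more. No paired analysis was possible because each genotype has 1 array. With 1 array a side, an array's own deviation and its genotype cannot be told apart.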

Other observations

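Lists of markers of other brain regions had median log2 differences from -0.10 to 0.18, with single members farther from WT. Members were kept by their mean over 6 arrays, which does not show signal on these 2. Thalamic genes read above WT in the Vldlr knockout at 10 of 13 kept, with a median log2 difference of 0.11. The highest was Tcf7l2, a transcription factor of thalamic neurons and young oligodendrocytes, at 606.5 in the Vldlr knockout, 339.5 to 485.7 in the other 4 knockouts and 321.5 in WT (0.86). The Vldlr knockout was the highest array and WT the lowest at this probe set, while 3 others past the filter differed by -0.08 to 0.59. Striatal genes were 7 above and 9 below WT (median -0.02), with Foxp1 at 1371.5 in the Vldlr knockout, 937.9 to 1158.9 in the other 4 knockouts and 1034.2 in WT (0.40). Hippocampal genes were 8 of 11 above WT (median 0.14), olfactory bulb genes 10 of 13 (median 0.18) and hypothalamic genes 5 of 12 (median -0.10, which changed sign under 1 alternative). Avp, the hypothalamic peptide vasopressin, read 397.9 in the Vldlr knockout, 367.7, 160.9, 557.9 and 299.9 in the Apoer2, Dab1, Reln and double knockouts, and 220.0 in WT (0.78). Its level varied as much among the other arrays. The pituitary list kept 3 genes. Of these, Gh was kept through its 3704.8 on the Apoer2 knockout array. Its 24.5 in the Vldlr knockout and 20.4 in WT were in or near the range of the bacterial controls, so they give no direction. Pomc and Lhb differed by -0.36 and -0.06.

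Circadian clock genes were 9 above and 8 below WT (median 0.00, which changed sign between settings). Per2, a repressor of the clock, read 140.8 in the Vldlr knockout, 429.2, 167.0, 197.3 and 159.2 in the Apoer2, Dab1, Reln and double knockouts, and 213.0 in WT (-0.51). Per3 read 206.5 in the Vldlr knockout, 259.5 to 346.3 in the other 4 knockouts and 293.3 in WT (-0.45). The Vldlr knockout was the lowest array for both at the probe sets used. At another Per3 probe set, 1442243_at, it was the highest, at 180.3 against 138.7 in WT (0.32), and at another Per2 probe set, 1457350_at, 2 arrays were lower. Presynaptic vesicle genes were 13 of 20 above WT (median 0.07). Syt2, a calcium sensor of fast synapses, read 313.6 in the Vldlr knockout, 325.6 to 430.0 in the other 4 knockouts and 538.1 in WT (-0.73), and Vamp1, a vesicle protein of the same synapses, differed by -0.49. Proliferation genes kept 6 members, 4 above WT (median 0.00), with Pttg1 as the member far below WT.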
